A study of Mus musculus with 3 samples.

Results

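Target genes of NRF2 and enzymes of the pentose phosphate pathway were described over 3 mouse arrays. Members were chosen by gene symbol: Nqo1, Hmox1, Gclc, Gclm, Me1, Txnrd1 and Srxn1 for the redox arm, and G6pdx, Pgd and Taldo1 for the pentose phosphate arm. Of these 10 genes 9 had a named probe set, 1 each, among the 22180 named genes of the array, and G6pdx was not analysed here. RNA was measured once on each of 3 arrays. FULA 1 is a mouse lung adenocarcinoma line, 1 line grown in medium with 10% serum. The saline lung came from FVB mice injected with saline, and the urethane lung from FVB mice 1 week after intraperitoneal urethane, a carcinogen that gives lung tumours in mice. FVB is the inbred strain of both lungs, and the ages of the mice, their number per array and the time of the saline lung are not stated in the labels. With 1 array per group there is no replicate spread, no difference could be tested, and each value compares these arrays rather than the conditions.

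NRF2, encoded by Nfe2l2, is a transcription factor that KEAP1 and the CUL3 ubiquitin ligase mark for breakdown. Electrophiles and oxidants modify KEAP1, and NRF2 then builds up, pairs with small MAF proteins and binds antioxidant response elements, which BACH1 can occupy in its place. Its targets make glutathione, reduce thioredoxin and quinones, break down haem and regenerate NADPH, the reductant that the oxidative pentose phosphate pathway and malic enzyme supply. In lung the pathway is known for defence against inhaled oxidants, and activating changes in it occur in lung cancers.

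The 3 deposited columns were not on a common scale, with medians over 41345 probe sets of 4.96 on FULA 1 and, for the lungs, 0.08 after saline and 1.22 after urethane (log2). Values below are therefore given in 2 forms. The percentile rank is the share of the array's probe sets at or below the gene's own, which no rising change of scale alters, and the normalized value is the log2 value after quantile normalization of the 3 arrays. The 95th percentile of 1105 olfactory receptor genes, largely silent outside the olfactory epithelium, was taken as a background mark (FULA 1 1.96, saline 2.46, urethane 2.44, normalized log2). Ranks and normalized values describe each gene against itself across arrays, since the levels of different probe sets cannot be compared. The labels were checked on cell type markers: Scgb1a1, the club cell secretoglobin, ranked at 99.9 on both lungs and 20.3 on FULA 1. All 7 alveolar type II markers were above the mark on both lungs. On FULA 1, 4 of these 7 were above it, none of them higher than rank 55.9. Of all 22180 named genes, 12913 were above the mark on FULA 1, 10985 on the saline and 10838 on the urethane lung. A marker above the mark on FULA 1 is therefore not by itself a sign that its cell type is present.

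The promoters of 3 members that differed between the line and the lungs in opposite directions, and of Me1, the member with the largest difference, are shown to place the NRF2 element in sequence. Each is the 250 bases before an annotated start in RefSeq (GRCm38.p6), 5′ to 3′ on the gene's strand, with capitals on matches to the core element TGACNNNGC or its variant TGAGNNNGC on either strand. They lie at chr3:122245307-122245556 (plus strand) for Gclm, chr10:82858956-82859205 (plus strand) for the second of 3 listed starts of Txnrd1, chr2:152105274-152105523 (plus strand) for Srxn1 and chr9:86695915-86696164 (minus strand) for Me1.
Gclm: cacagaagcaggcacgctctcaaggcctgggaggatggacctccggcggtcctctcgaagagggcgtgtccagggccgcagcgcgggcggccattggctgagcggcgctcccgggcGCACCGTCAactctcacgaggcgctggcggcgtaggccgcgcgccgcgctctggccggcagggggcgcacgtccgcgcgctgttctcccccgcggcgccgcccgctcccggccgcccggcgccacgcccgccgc
Txnrd1: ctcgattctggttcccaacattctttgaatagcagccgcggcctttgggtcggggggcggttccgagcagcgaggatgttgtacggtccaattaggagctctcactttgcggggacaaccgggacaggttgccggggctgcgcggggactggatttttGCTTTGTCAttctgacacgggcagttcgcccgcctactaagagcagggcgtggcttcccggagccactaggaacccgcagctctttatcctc
Srxn1: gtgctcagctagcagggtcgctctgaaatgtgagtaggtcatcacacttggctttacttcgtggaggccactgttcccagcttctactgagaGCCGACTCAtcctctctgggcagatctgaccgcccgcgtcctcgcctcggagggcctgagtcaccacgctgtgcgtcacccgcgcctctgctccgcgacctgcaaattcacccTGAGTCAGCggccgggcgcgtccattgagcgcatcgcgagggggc
Me1: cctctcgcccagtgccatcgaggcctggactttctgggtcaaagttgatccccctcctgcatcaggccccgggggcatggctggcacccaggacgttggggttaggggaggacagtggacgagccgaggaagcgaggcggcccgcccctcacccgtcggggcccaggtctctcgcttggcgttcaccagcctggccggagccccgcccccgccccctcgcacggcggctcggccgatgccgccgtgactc
The Gclm match read TGACGGTGC on the opposite strand, 125 bases before the start, and the Txnrd1 match read TGACAAAGC on the opposite strand, 83 bases before it. Srxn1 held the variant at 2 places. Its nearer match, TGAGTCAGC, lay 36 bases before the start and overlapped the AP-1 element TGANTCA, and the farther match read TGAGTCGGC on the opposite strand, 149 bases before the start. The Me1 window held neither, and nor did that of its other listed start. The windows of the other listed starts of Txnrd1 held neither. Pgd, also higher in FULA 1, and Nqo1 had no match in any window. The RefSeq promoter set used here held 12 promoters for 8 of the 10 members. It had no entry for Hmox1 and Gclc, although RefSeq lists both genes. TGACNNNGC was present in 3 of these 12, those of Gclm, Txnrd1 and G6pdx, against 10.2% of 32851 promoter windows of the same length. TGAGNNNGC, added after the promoters had been read, was present in 2, those of Srxn1 and Taldo1, against 14.4% of all windows. A match describes these letters only, and a window without a match leaves the rest of the gene unread.

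The comparison of FULA 1 with the saline lung asks how the tumour line differed from normal lung. Glutathione synthesis, thioredoxin reduction and NADPH supply were represented among the higher genes: Me1 was 6.25-fold higher in FULA 1, Gclm 2.99-fold, Pgd 2.48-fold and Txnrd1 2.40-fold. Srxn1 stood at -0.85 on the log2 scale, a difference of under 2-fold. A gene was counted as higher or lower at 2-fold or more if the larger of its values reached the median of all gene values (2.37, normalized log2), and all 9 measured members passed that floor. By this count 4 of 9 members were higher and 0 lower, where 22.6% of the 13590 genes past the floor were higher and 22% lower (44.6% in either direction). The median difference of the 9 was 0.58, against 0.02 over the genes past the floor. Where each array was only shifted to the common median, 8 members were higher and 0 lower, but so were 7058 genes against 1785 lower. After subtraction of a lowess curve 4 members were higher and 1, Srxn1, lower, beside 2142 genes higher and 3010 lower of 13590.

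Against the urethane lung, FULA 1 was 6.91-fold higher in Me1, 2.52-fold in Pgd, 2.49-fold in Gclm and 2.19-fold in Txnrd1. Nqo1 also passed as measured, but its urethane value lay below the background mark, and with the mark in its place it was higher by at least 0.90 (log2), under 2-fold. With Nqo1 as measured the count was thus 5 of 9 higher and 0 lower, where 22.1% of 13264 genes were higher and 19.5% lower (41.5% in either direction). With the mark it was 4 of 9 higher and 0 lower, where 2297 of the 13264 genes were higher and 2159 lower by the same rule. The median difference was 1.13, against 0.07 over the genes past the floor. With the same shift 8 members were higher, beside 7154 genes higher and 1558 lower. The FULA 1 array is shared by both comparisons, so they are not independent of each other. The 5 became 1 gene, Me1, after subtraction of a lowess curve, where Gclm stood at 0.91, Pgd at 0.96, Nqo1 at 0.87 and Txnrd1 at 0.75 (log2). With that curve 2160 of 13264 genes were higher and 2743 lower. Cultured cells were set against tissue of several cell types, and cell composition, culture and tumour state cannot be told apart. In the lungs, fewer cells of a type and less RNA per cell cannot be told apart either.

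**Figure D1:**
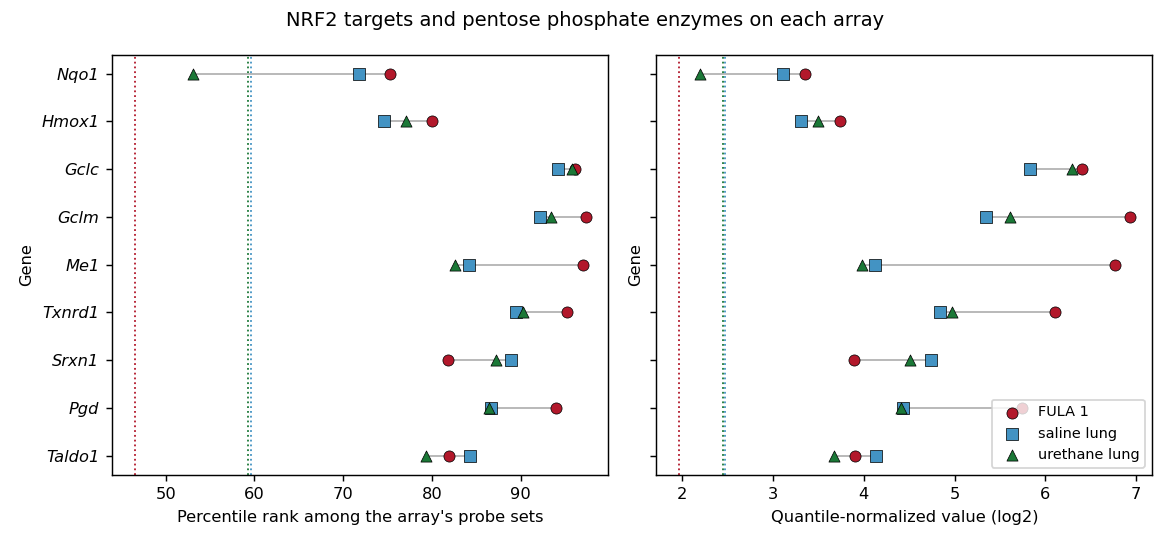
Each row is 1 gene with its 3 arrays (circle FULA 1, square saline lung, triangle urethane lung), as percentile rank on the left and quantile-normalized log2 value on the right; dotted lines are the background mark of the array in that colour. FULA 1 lies apart to the right for Me1, Gclm, Txnrd1 and Pgd and to the left for Srxn1, and Nqo1 on the urethane lung (rank 53.0) lies below its mark.

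Glutamate-cysteine ligase, which carries out the first and rate-limiting step of glutathione synthesis, has a catalytic subunit encoded by Gclc and a modifier subunit encoded by Gclm. Gclm had a normalized value of 6.93 on FULA 1, against 5.35 on the saline and 5.61 on the urethane lung (log2), at ranks 97.3, 92.2 and 93.4. FULA 1 was the high array, by 1.58 over the saline lung and 1.32 over the urethane lung. Gclc had normalized values of 6.40, 5.83 and 6.29 in the same order, at ranks 96.1, 94.3 and 95.7. FULA 1 and the urethane lung lay 0.11 apart for Gclc, with the saline lung lowest, so the subunits differed in pattern: FULA 1 minus urethane lung was under 2-fold for the catalytic subunit and above it for the modifier. That contrast at 2-fold depended on the scaling. With a common median both passed it (Gclc 1.69, Gclm 2.74), and with lowess neither did (-0.13 and 0.91). The urethane value of Gclc as deposited (4.77) was shared with 19 other probe sets, so it has little resolution.

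Txnrd1, the cytosolic thioredoxin reductase that passes electrons from NADPH to thioredoxin, had a normalized value of 6.10 on FULA 1, against 4.84 on the saline and 4.97 on the urethane lung, at ranks 95.2, 89.5 and 90.3. The line was the high array and the lungs lay 0.13 apart. Srxn1, sulfiredoxin, which restores overoxidized peroxiredoxins, showed the opposite order, with 3.89 on FULA 1, against 4.74 on the saline and 4.50 on the urethane lung, at ranks 81.8, 88.9 and 87.3. Its differences were -0.85 against the saline lung and -0.61 against the urethane lung, and Srxn1 alone among the 9 was lower in FULA 1 in both comparisons. That direction held with the quantiles of the FULA 1 array and with lowess (-1.23 against the saline lung, past 2-fold there) but turned when the arrays were only shifted to a common median (0.70 and 0.89).

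Nqo1 encodes the quinone reductase that is often read as a reporter of NRF2 activity. Its normalized value was 3.35 on FULA 1, 3.11 on the saline and 2.19 on the urethane lung, at ranks 75.3, 71.8 and 53.0. The urethane lung stood apart, below the background mark, while FULA 1 and the saline lung lay 0.24 apart, a sign that turned with lowess (-0.06). Hmox1, the inducible haem oxygenase that releases iron, carbon monoxide and biliverdin from haem and is abundant in macrophages, had values of 3.74, 3.31 and 3.49, at ranks 80.0, 74.6 and 77.1. FULA 1 was the highest of the 3, but by 0.43 and 0.25 (log2), and the latter turned negative with lowess (-0.07). On the urethane lung the deposited value of Hmox1 (2.25) was shared by 338 other probe sets, among them that of Hmox2, the constitutive haem oxygenase.

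Me1, the cytosolic malic enzyme that makes NADPH while turning malate into pyruvate, had the largest member difference. Its normalized value was 6.77 on FULA 1, 4.13 on the saline and 3.98 on the urethane lung, at ranks 97.0, 84.2 and 82.6. Its difference was above that of 97.4% of the genes past the floor against the saline lung and 98.2% against the urethane lung. In both comparisons Me1 was the member that also passed 4-fold, and over the 4 scalings other than the deposited values it ran from 2.33 to 4.07 against the saline lung and from 2.20 to 4.07 against the urethane lung. Fat cells are a known site of high Me1, and of the 4 measured adipocyte markers 2 were above the mark on FULA 1 and 1 on each lung. The fat hormone genes Adipoq and Lep were below the mark on all 3 arrays. Plin1 was above it on all 3, and stood at -1.11 (log2) in FULA 1 minus saline lung and at -1.62 against the urethane lung. Cidec was above the mark on FULA 1 alone. Its difference was 1.56 against the saline and 1.55 against the urethane lung, or at least 0.91 and 0.93 with the mark. The part of fat cells in the Me1 differences was not tested.

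Of the pentose phosphate members, Pgd was higher in the line and Taldo1 was within 2-fold. Pgd, 6-phosphogluconate dehydrogenase, makes NADPH in the oxidative branch and had a normalized value of 5.74 on FULA 1, 4.44 on the saline and 4.41 on the urethane lung, at ranks 93.9, 86.7 and 86.5. The lungs lay 0.02 apart and the line was higher than both. Taldo1, the transaldolase of the non-oxidative branch, had 3.90, 4.14 and 3.68, at ranks 81.9, 84.3 and 79.4. FULA 1 lay between the lungs, at -0.23 from the saline lung and 0.23 from the urethane lung. The first of these turned to 1.32 once the arrays were shifted to a common median, the second to -0.08 with lowess.

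**Figure D2:**
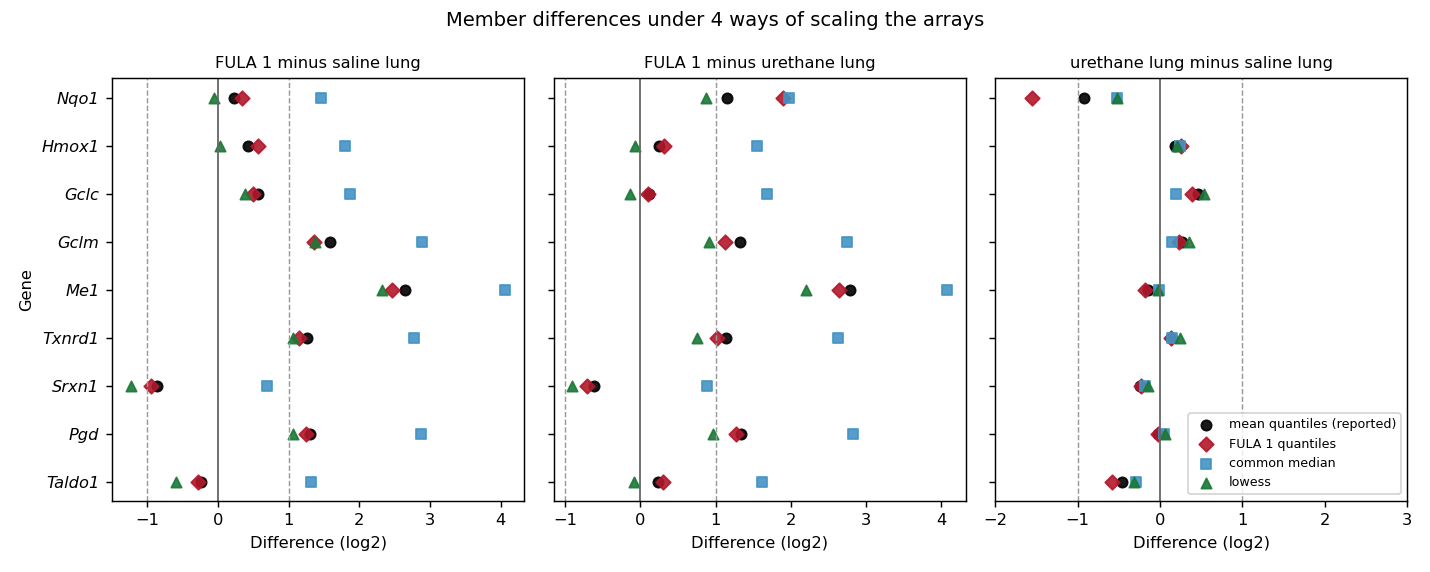
Differences of the 9 members (log2, x axis) in the 3 comparisons, each under 4 scalings of the arrays; dashed lines stand at 2-fold. Me1 lies beyond 2-fold under all 4 scalings in both FULA 1 comparisons, the common-median values lie to the right of the others there, and the lungs differ by less than 2-fold except for Nqo1 under the FULA 1 quantiles (-1.55).

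The comparison of the lungs asks how the tissue differed 1 week after the carcinogen. No member reached 2-fold, where 3.27% of the 12519 genes past the floor were higher and 1.31% lower in the urethane lung (4.58% in either direction). The median difference of the 9 was -0.02 (urethane minus saline), against -0.07 over the genes past the floor. The split over all genes, 409 higher and 164 lower, became 215 and 203 with a common median and 979 and 897 with the quantiles of FULA 1. It was 233 and 35 with lowess, 434 and 172 with the probe set of highest mean, and 254 and 95 with the mark. Its balance thus depended on the setting, and no direction is read from it. Nqo1 came nearest to 2-fold, at -0.92, or at least 0.67 lower if its urethane value is put at the mark. Its saline value as deposited (0.69) was shared by 20 other probe sets. Taldo1 stood at -0.46, Srxn1 at -0.24, Me1 at -0.15 and Pgd at -0.02, whereas Gclc stood at 0.46, Gclm at 0.26, Hmox1 at 0.19 and Txnrd1 at 0.13. The negative signs of Nqo1, Taldo1, Srxn1 and Me1 and the positive signs of the other 4 held under the 4 scalings other than the deposited values, while the sign of Pgd did not. These scalings rework the same arrays and include the reported one, so a sign that held was not replicated. The deposited urethane values of Hmox1 and Gclc were shared by 338 and 19 other probe sets. As reported, both subunits of glutamate-cysteine ligase were on the higher side and Nqo1 on the lower side, each by under 2-fold.

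Cell type markers were set beside these differences. Their counts above the mark stand beside 12913 of all 22180 named genes on FULA 1, 10985 after saline and 10838 after urethane. Of 9 alveolar macrophage markers 7 were above the mark on FULA 1, 7 after saline and 9 after urethane, and their summed normalized values were 29.3, 33.8 and 34.8. The macrophage gene Marco was below the mark on FULA 1 alone, and Itgax on FULA 1 and the saline lung. On FULA 1 Mrc1 was above it at rank 91.7. Mrc1 was the macrophage marker at least 2-fold higher in FULA 1 than in either lung. Its difference was 2.96 against the saline lung (at least 2.77 with the mark as its saline value) and 2.27 against the urethane lung (log2). Cd68, Abcg1, Plet1 and Krt79 were above the mark and within 2-fold on all 3 arrays. Chil3 and Fabp4 were above it on all 3, and lower in FULA 1 than in either lung by more than 2-fold. Of 7 leukocyte markers 1 was above the mark on FULA 1 (Lyz2), 5 after saline and 4 after urethane, with sums of 11.9, 24.5 and 22.8. All 6 club cell markers were above the mark on both lungs, with sums of 51.5 after saline and 50.5 after urethane, and 4 of 6 on FULA 1 (17.9). Of 7 endothelial markers 3 were above the mark on FULA 1 and 7 on each lung, with sums of 13.6, 40.5 after saline and 39.4 after urethane. As deposited, some markers had the same value on several arrays. Emcn (3.96) did on all 3, Cldn5 (4.50) and Scgb3a2 (3.89) on FULA 1 and the urethane lung, and Cdh5 (5.56), Dcn (5.45) and Scgb3a1 (6.25) on both lungs. Between those arrays their normalized differences come from the scaling alone. Of the 6 fibroblast markers 3 were above the mark on FULA 1 and 5 on each lung, and of the 5 alveolar type I markers 3 on FULA 1 and 5 on each lung. The type I marker Aqp5 was higher in FULA 1, by 2.49 against the saline and 2.28 against the urethane lung (log2). Ager, Hopx and Pdpn were lower in FULA 1 than in either lung by more than 2-fold. Rtkn2 was lower by 0.99 and 1.08. The 5 measured proliferation genes were above the mark on all 3 arrays and were each at least 2-fold higher in FULA 1 than in either lung. The part of these cell types and of proliferation in the member differences was not tested.

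Regulators of the pathway come first among its other genes, whose counts stand beside 22.6% higher and 22% lower over all genes past the floor in FULA 1 minus saline lung and are read as no property of a list. Counts with the mark in place of values below it stand beside 2401 genes higher and 2478 lower of 13590 by that rule. Of 13 measured regulators, 13 past the floor, 1 was higher and 1 lower, with a median of -0.46. With the mark in place of values below it, 0 were higher and 1 lower. Nfe2l2 had a normalized value of 7.73 on FULA 1, 7.36 on the saline and 7.09 on the urethane lung (log2), so its RNA was within 2-fold on the 3 arrays. Keap1, the mean of 2 probe sets, had 3.36, 3.29 and 3.36. Bach1, the repressor, had 3.97, 4.86 and 4.73, and was lower in FULA 1 by 0.89 and 0.76. The small MAF genes went both ways: Mafk was lower in FULA 1 by 1.81 against the saline lung, and Mafg was higher by 1.04, or at least 0.69 with the mark as its saline value. Mafg was also higher in the urethane than in the saline lung, by 1.13 or at least 0.78, and its deposited saline value (0.09) was shared by 334 other probe sets. Cul3, the ligase scaffold, was higher in FULA 1 by 0.71 against the saline lung. RNA levels of these regulators do not measure NRF2 protein.

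Among 23 other measured NRF2 targets, 21 past the floor, 7 were higher and 5 lower in FULA 1 minus saline lung as measured, with a median of 0.41. With the mark in place of values below it, 5 were at least 2-fold higher and 5 lower, since Slc7a11 and Ptgr1 were below it on the saline lung. The higher genes included Akr1b8, an aldo-keto reductase, at 2.63 (at least 2.12 with the mark as its saline value), and Ugdh, which makes UDP-glucuronic acid, at 2.56. They also included Abcc1, an exporter of glutathione conjugates, at 2.44, and Gsr, glutathione reductase, at 1.73. Slc7a11, the cystine importer and the mean of 2 probe sets, stood at 1.12 or at least 0.35. The lower genes included the glutathione transferases Gsta3 at -3.26 (lower by at least 3.06) and Gstm1 at -1.92, and Txn1, thioredoxin, at -1.62. Against the urethane lung 7 were higher and 3 lower as measured (5 and 3 with the mark), and between the lungs 0 of 23 reached 2-fold in either direction, where Blvrb, biliverdin reductase B, was the lowest at -0.93. Glutathione transferases form families of close copies, so their values are uncertain.

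Of 6 other pentose phosphate enzymes measured, 5 past the floor, 0 were higher and 3 lower in FULA 1 minus saline lung, with a median of -0.79. With the mark in place of values below it, 2 were lower and the median was -0.52. Pgls, the lactonase between the dehydrogenase steps and the mean of 2 probe sets, stood at -1.68. H6pd, the dehydrogenase of the endoplasmic reticulum, stood at -1.14, Rpia at -0.49 and Rpe at -0.06. The third lower gene was G6pd2, an intronless copy of G6pdx whose probe set may not separate the copies, at -1.08. It lay below the mark on FULA 1 and on the urethane lung, so its difference from the saline lung was at least 0.55 in size. Between the lungs none of the 6 passed 2-fold, and Tktl1, a transketolase-like gene, was below the mark on all 3 arrays.

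Of 8 other NADPH sources measured, 7 past the floor, 5 were higher and 0 lower in FULA 1 minus saline lung, with a median of 1.17, and the counts were the same with the mark in place of values below it. Me2, the mitochondrial malic enzyme, stood at 2.91, Nnt, the mitochondrial transhydrogenase, at 1.92, Mthfd2, of mitochondrial folate metabolism, at 1.71 (at least 1.70), and Idh1 and Idh2, isocitrate dehydrogenases, at 1.29 and 1.06. Mthfd1 stood at 0.70 and Nadk, which makes NADP from NAD, at -0.50. Between the lungs Me2 stood at 1.01 (urethane minus saline), but its deposited urethane value (2.68) was shared by 239 other probe sets, so this difference is coarse.

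Of 17 other antioxidant enzymes measured, 16 past the floor, 3 were higher and 5 lower in FULA 1 minus saline lung, with a median of -0.26, and 2 were higher and 5 lower with the mark in place of values below it. Gss, which completes glutathione, stood at 1.59 and Txnrd3 at 1.10 (at least 0.57). Gpx3, the extracellular glutathione peroxidase, stood at -3.63 (lower by at least 3.18) and Sod3, the extracellular superoxide dismutase, at -2.21. Of 10 measured genes of haem and iron handling 2 were higher and 1 lower, with a median of -0.07. The iron exporter Slc40a1 stood at 2.23 (at least 1.61) and the haem exporter Flvcr1 at 1.53 (at least 1.27), whereas Alas1, the first enzyme of haem synthesis, stood at -2.53 and the haem-binding Hpx at -0.83.

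**Figure D3:**
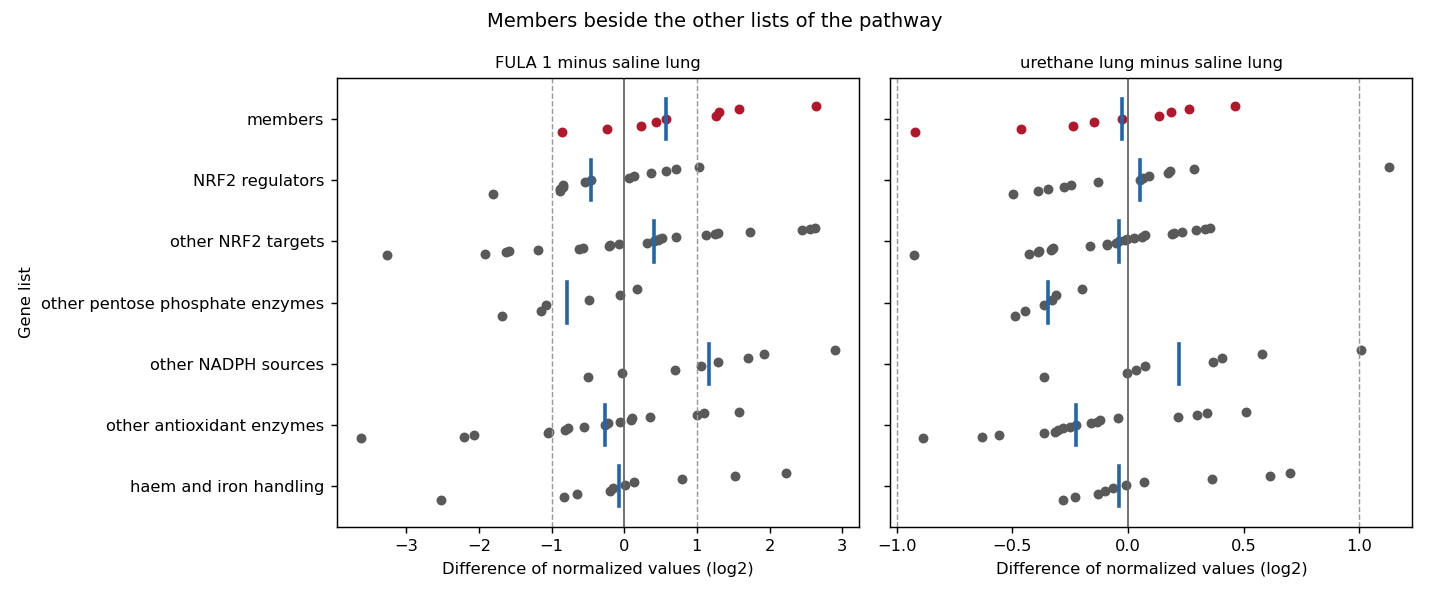
Each point is 1 gene of a list, placed by its difference of normalized values (log2) in FULA 1 minus saline lung (left) and urethane lung minus saline lung (right); blue bars are list medians and dashed lines stand at 2-fold. On the left the members (red) have a median of 0.58 and the other pentose phosphate enzymes one of -0.79; on the right the points beyond 2-fold are Mafg at 1.13 and Me2 at 1.01.

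The genes nearest to Nqo1 in their 3 normalized values were Nsun3, at a Euclidean distance of 0.15 (log2), and Tmem39b, at 0.18. Those nearest to Hmox1 were Zw10, at 0.03, and Zfp821, at 0.05. Over 3 arrays such a likeness is common: 120 genes lay within 0.5 of Nqo1 and 430 within 0.5 of Hmox1.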

How the data were processed

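RNA of 3 mouse samples was measured on whole-transcript arrays, 1 array per group. The authors deposited 1 log2 value per probe set and array, made with RMA per the submitters' processing notes and GeneSpring GX 12.5 per the design text. The background setting, and which arrays were normalized together, are not given in these sources. The 3 columns were each used, and 0 belonged to other samples. The plan for these genes took quantile normalization of the 41345 probe sets, with the average of the sorted columns as target and ties at their mean rank (Python 3.11.15, pandas 2.3.3, numpy 2.4.6). The step was tested on simulated arrays that differed in few probe sets, with as many raised as lowered. That setting does not cover arrays that differ as widely as FULA 1 and the lungs. The platform annotation gave 1 symbol for 23521 probe sets, several for 1814 (not used) and none used for 16010. Symbols were updated by Entrez identifier through RefSeq GRCm38.p6, which matched 23328. Probe sets of a gene were averaged, which affects none of the members.

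No test was run; precision is limited by the number of arrays. The members and lists were chosen with earlier results of these data known. Named genes were the members, the 2 highest and 2 lowest genes past the floor of each pathway list in FULA 1 minus saline lung, Nfe2l2, Keap1 and Bach1, label checks, and the 2 genes nearest to Nqo1 and to Hmox1; others were named after their values were seen. The same step planned for G6pdx could not be run. Alternatives were 4 other scalings (lowess with span 0.3 from statsmodels 0.14.6), other thresholds, floors and the probe set rule, and, chosen after seeing the data, the background mark in place of a lower value. The erythroid markers had no probe set of their own and were not used.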

Additional observations from a re-analysis of the deposited data

How the results depend on the processing

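The counts of members depended on the scaling. As deposited, FULA 1 exceeded both lungs by 2-fold for all 9 members. So it did for 21703 (saline) and 21603 (urethane) of 21820 genes past the floor. The urethane lung exceeded the saline lung by 2-fold for 6 members, beside 5180 of 8102 genes. With array medians made equal, 8 members were at least 2-fold higher in FULA 1 in each comparison. Beside them stood 7058 of 13666 genes against the saline lung and 7154 of 13525 against the urethane lung. A 4-fold threshold left 1 member in each FULA 1 comparison, and the share of all genes past it was not computed. Lowess left 1 member against the urethane lung, where 2160 of 13264 genes were higher and 2743 lower. At 1.5-fold 4 members were higher and 1 lower against the saline lung, and 5 higher and 1 lower against the urethane lung, the lower one being Srxn1. Between the lungs the quantiles of the FULA 1 array gave 1 member past 2-fold and a threshold of 1.5-fold gave 1, Nqo1 in both cases. The share of all genes past 1.5-fold was not computed. With the quantiles of the FULA 1 array 979 of 12515 genes were higher and 897 lower between the lungs. The cause was not tested. The other floors, the probe set rule and the background mark kept each count of members within 1.5 times.

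Some signs turned. As deposited, FULA 1 minus saline lung was 5.59 for Srxn1 and 6.21 for Taldo1, FULA 1 minus urethane lung was 4.63 for Srxn1, and urethane minus saline lung was 0.63 for Nqo1, 1.13 for Me1, 0.96 for Srxn1, 1.19 for Pgd and 0.85 for Taldo1. With a common median, FULA 1 minus saline lung was 0.70 for Srxn1 and 1.32 for Taldo1, FULA 1 minus urethane lung was 0.89 for Srxn1, and urethane minus saline lung was 0.043 for Pgd. With lowess, Nqo1 was at -0.058 against the saline lung, Hmox1 at -0.072, Gclc at -0.13 and Taldo1 at -0.083 against the urethane lung, and Pgd at 0.061 between the lungs. No paired analysis was possible because each group had 1 array.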
